A study of Homo sapiens with 8 samples.

Results

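The genes described are 49 subunits of ATP-dependent chromatin remodelling machines, taken by name from 60669 genes in the count tables: 28 of the BAF (SWI/SNF) family, with DPF2 and its paralogs, and 21 of the ISWI, CHD, INO80/SWR1 and HELLS/ATRX families. All 49 were found, and 48 passed the filter on low counts. ACTL6B, the neuronal form of an actin-related BAF subunit, had 1 read in all 8 libraries and was not tested. RNA was sequenced from HCT116, a line from a human colon carcinoma, either with unedited DPF2 (WT) or with the R350H change written into the DPF2 gene by CRISPR/Cas9. Each line was studied untreated and after 24 h in 0.5 µM doxorubicin, a drug that traps topoisomerase II and leaves DNA breaks, with 2 libraries in each of the 4 groups. The stated question was how gene expression under DNA damage depends on the contact between BAF and nucleosomes carrying acetylated lysine 56 of histone H3, which the altered DPF2 was reported to impair. The labels name neither separate cultures nor the number of edited clones. The p-values therefore measure the spread between libraries, which could be technical. The edit cannot be told apart from other differences between the lines.

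Remodellers use ATP to slide, evict or exchange nucleosomes. BAF complexes share an ATPase (SMARCA4 or SMARCA2) and a core, and split into canonical BAF with ARID1A or ARID1B and a DPF protein, PBAF with PBRM1, ARID2, BRD7 and PHF10, and ncBAF with BRD9 and BICRA or BICRAL. ISWI motors space nucleosomes, several CHD proteins act at promoters and enhancers, and the INO80, SRCAP and EP400 complexes handle the histone variant H2A.Z with the help of RUVBL1 and RUVBL2. In colon cancers ARID1A is among the remodeller genes that are often mutated.

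DPF2 reads acetylated histone H3 through tandem PHD fingers near its C-terminus, and residue 350 lies in this stretch. The coding sequence is shown because it is the site of the only engineered change, and because the paralogs show what stands at the same place. Each line gives 45 bases of the GENCODE 29 reference transcript (GRCh38), 5′ to 3′, with the codon for DPF2 residue 350 or the residue aligned to it in capitals. The DPF2 codon lies in exon 10 on chromosome 11, bases 65348880 to 65348882, plus strand. The DPF1 codon for residue 349 lies on chromosome 19, bases 38212329 to 38212331, minus strand. The DPF3 codon for residue 339 lies on chromosome 14, bases 72619952 to 72619954, minus strand. The PHF10 codon for residue 456 lies on chromosome 6, bases 169705176 to 169705178, minus strand.
DPF2: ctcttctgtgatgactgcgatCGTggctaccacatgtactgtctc
DPF1: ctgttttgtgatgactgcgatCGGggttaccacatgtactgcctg
DPF3: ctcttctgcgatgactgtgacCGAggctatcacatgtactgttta
PHF10: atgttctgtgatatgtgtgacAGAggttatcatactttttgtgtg
All 4 codons encode arginine, each with a different triplet. Over the aligned residues DPF2 was 64.8% identical to DPF1 (369 residues), 65.4% identical to DPF3 (373 residues) and 37.0% identical to PHF10 (211 residues). The counts per gene do not show which base stood at this codon in any library.

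The libraries held 28111673 to 33727374 counts. Of 8 colon epithelium markers, VIL1 and CDX1 were under 1 TPM (counts per exon length, scaled to a common total) in all libraries, and the summed level of the 8 was 2463 to 2893 TPM untreated and 3317 to 4040 TPM after doxorubicin. Summed markers of blood cells (0.556 to 1.28 TPM, with all 5 under 1 TPM) and endothelium (0.150 to 0.377 TPM, with all 3 under 1 TPM) were near 0. Those of neurons (1.15 to 3.18 TPM) were mostly SYP, and those of fibroblasts (10.2 to 31.3 TPM) were nearly all COL1A1, while COL1A2 and DCN were at or near 0. The fibroblast sum was 10.2 to 20.9 TPM in WT and 23.6 to 31.3 TPM in R350H libraries. Mitochondrially encoded genes took 11.2 to 11.8% of counts untreated and 13.5 to 14.6% after doxorubicin. The part of these shifts in the results was not tested. Untreated WT replicate 1 and untreated R350H replicate 2 were counted with another strand setting than the other 6 libraries, per the file headers.

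HCT116 cells expressed nearly the whole set. In untreated WT cells the levels per exon length ran from SMARCD2 (149.9 TPM, libraries at 147.8 and 152.0) and RUVBL2 (147.2 TPM, 139.7 and 154.8), which overlapped, down to DPF3 (0.529 TPM, 0.477 and 0.581). SMARCC1, a scaffold of every BAF complex, came next at 118.9 TPM and was separated from both. SMARCA5 (86.4 TPM) and BAZ1B (84.3 TPM), the motor and the noncatalytic subunit of an ISWI complex, overlapped in their libraries. Altogether 37 members reached 10 TPM in all 8 libraries, and ACTL6B alone stayed under 1 TPM in all of them. Some levels are too low by construction, because a fragment in exon bases shared with another gene on the same strand is not counted. Shared were 74.3% of the exon bases of SRCAP, 46.9% of CHD4, 18.9% of SMARCE1 and 10.2% of CHD2. The length that divides the counts is every annotated exon base of a gene, for example 45931 for ARID1B, 18470 for SMARCE1 and 16526 for SMARCB1. The order of genes by TPM therefore depends on the annotation too.

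DPF2, the edited gene, was lower in the R350H line with and without drug. Its level in CPM (counts scaled to a common library size with TMM factors) was 94.7 and 92.7 in the untreated WT libraries against 58.6 and 54.4 in the untreated R350H libraries. With doxorubicin it was 106 and 108 in WT against 54.3 and 53.5 in R350H. No R350H library overlapped a WT library. The log2 difference was -0.73 ± 0.07 untreated (SE, edgeR adjusted p = 9.29e-10) and, after drug, -0.99 ± 0.07 (edgeR adjusted p = 1.53e-12). DPF2 rose with doxorubicin in WT by 0.19 ± 0.06 (edgeR adjusted p = 0.0146), and its change in R350H was -0.07 ± 0.07 (edgeR adjusted p = 0.423). The difference between these responses, -0.26 ± 0.09, missed the threshold (edgeR adjusted p = 0.0563). In bulk RNA, fewer cells of a type and less RNA per cell cannot be told apart.

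Between genotypes the remodeller genes lay more often below than above WT. In untreated cells 20 of 48 members were lower in R350H (41.7%, where 19.5% of all 17868 genes tested were lower) and 6 were higher (12.5%, against 17.3% of all genes), with a median log2 difference of -0.12 against -0.01 over all genes. Of the 27 tested BAF members 13 were lower (48.1%) and 2 higher (7.41%), and of the 21 others 7 were lower (33.3%) and 4 higher (19.0%). With doxorubicin 16 members were lower (33.3%, against 21.0% of all genes) and 6 higher (12.5%, against 19.1% of all genes), with a median of -0.06 against 0.02. The balance with doxorubicin depends on the scaling: by library totals alone, which raise the median of all genes to 0.13, 10 members were lower and 17 higher. The libraries of the 2 genotypes did not overlap for 36 members untreated (75.0%, against 67.7% of all genes) and for 37 with doxorubicin (77.1%, against 70.3%).

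Doxorubicin moved members both ways. In WT cells 15 members rose (31.2%, against 24.1% of all genes) and 10 fell (20.8%, against 23.6% of all genes), shares close to the background, with a median of 0.04 against -0.03. In R350H cells 20 rose (41.7%, against 26.1% of all genes) and 8 fell (16.7%, against 21.8% of all genes), with a median of 0.10 against 0.03. Of the 27 tested BAF members 7 rose (25.9%) and 9 fell (33.3%) in WT, and 12 rose (44.4%) and 5 fell (18.5%) in R350H. Treated and untreated libraries did not overlap for 34 members in WT (70.8%, against 69.9% of all genes) and for 41 in R350H (85.4%, against 76.1%). Asking in addition for a change of at least 1.2-fold left 7 rises in WT (14.6%, against 20.6% of all genes), 7 falls in WT (14.6%, against 20.4%), 14 rises in R350H (29.2%, against 22.4%) and 5 falls in R350H (10.4%, against 18.9%). Between genotypes it left 14 lower and 4 higher untreated (29.2% and 8.33%, against 15.9% and 14.3%) and 11 lower and 5 higher with drug (22.9% and 10.4%, against 17.5% and 16.1%).

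**Figure D1:**
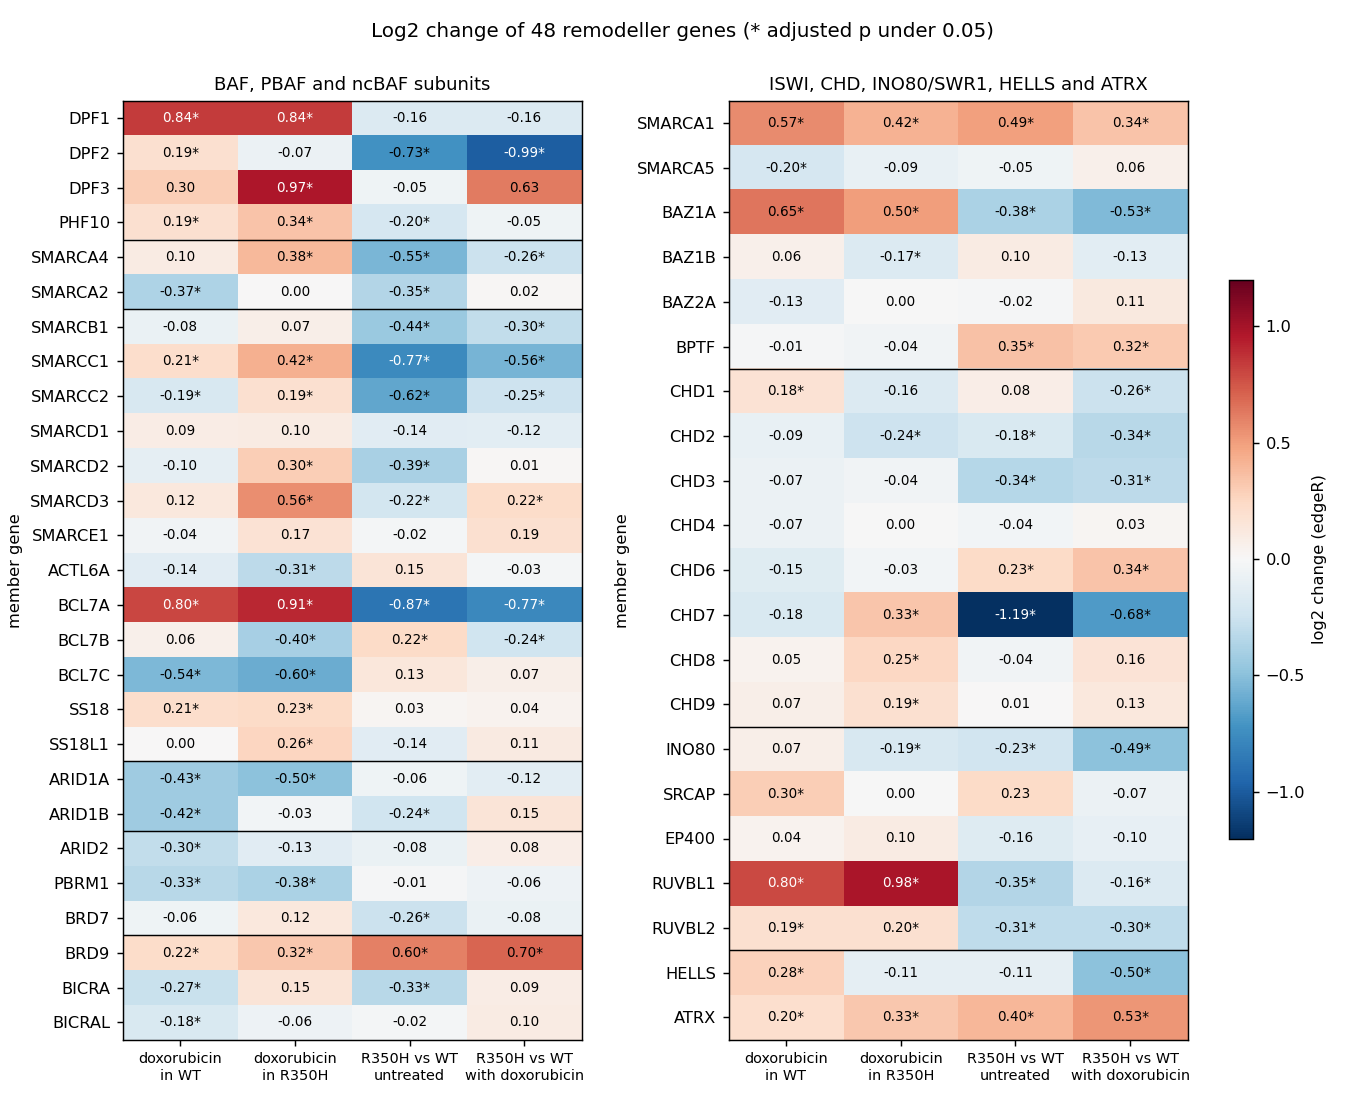
Log2 change (edgeR) of the 48 tested members, in rows, for the doxorubicin response of each line and the genotype difference without and with drug, in columns; red is higher, blue is lower, the number is the log2 change and an asterisk marks an adjusted p under 0.05. The untreated genotype column holds 20 members marked lower and 6 marked higher, led by CHD7 at -1.19 and BRD9 at 0.60.

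With 2 libraries a group, some calls rest on 1 library. Leaving out each library in turn, with the lone library of a group assumed to vary like the others, ended the calls of 10 of 26 members for genotype untreated (ARID1B, BCL7B, BICRA, CHD2, CHD6, INO80, PHF10, RUVBL2, SMARCA2 and SMARCD3) and of 4 of 22 with doxorubicin (BCL7B, BPTF, RUVBL1 and SMARCD3). It ended 13 of 25 calls for doxorubicin in WT (ATRX, BICRA, BICRAL, BRD9, CHD1, HELLS, PHF10, RUVBL2, SMARCA2, SMARCA5, SMARCC1, SMARCC2 and SRCAP) and 10 of 28 in R350H (BAZ1B, CHD2, CHD8, CHD9, DPF3, INO80, RUVBL2, SMARCC2, SS18 and SS18L1). No direction turned.

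Without both libraries of the other strand setting 24 of the 110 member calls ended. They were those of BICRAL, BRD9, PHF10, RUVBL2, SMARCA2 and SMARCC2 for doxorubicin in WT and of BAZ1B, CHD8, DPF3, RUVBL2 and SMARCC2 for doxorubicin in R350H. For genotype untreated they were ARID1B, BCL7B, BICRA, CHD2, INO80, PHF10, SMARCA2 and SMARCD3, and for the difference between responses ARID1B, BCL7B, HELLS, SMARCA4 and SMARCC2. Library totals ended 18 calls, among them BCL7B, CHD1, RUVBL1, SMARCA4, SMARCB1 and SMARCC2 for genotype with doxorubicin, and DESeq2 ended 12. Through every alternative 12 of 25 calls were kept for doxorubicin in WT, 18 of 28 in R350H, 16 of 26 for genotype untreated and 14 of 22 for genotype with drug. Of the 9 calls of a difference between responses 1 was kept. The count of members lower in untreated R350H was 12 without untreated R350H replicate 2, and 13 without both libraries of the other strand setting. The rises in WT numbered 9 without untreated WT replicate 2, and the falls in WT numbered 6 without treated WT replicate 1 or without either treated R350H library. In R350H the rises numbered 13 and the falls 5 without treated R350H replicate 1.

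Among the BAF ATPases, SMARCA4 carried nearly all of the message and was lower in R350H. Its CPM was 143 and 142 in untreated WT, 148 and 158 in treated WT, 98.2 and 97.6 in untreated R350H, and 126 and 130 in treated R350H. The genotypes did not overlap in either condition, and the difference was -0.55 ± 0.06 untreated (edgeR adjusted p = 9.79e-08) and -0.26 ± 0.06 with doxorubicin (edgeR adjusted p = 0.00142), the latter lost by library totals alone (-0.15, adjusted p = 0.0592). SMARCA4 rose with doxorubicin in R350H by 0.39 ± 0.06 (edgeR adjusted p = 1.18e-05). SMARCA2, the alternative ATPase, was low, at 13.3 and 11.6 CPM in untreated WT, 9.33 and 10.0 in treated WT, 11.2 and 8.32 in untreated R350H, and 10.2 and 9.36 in treated R350H. It fell with doxorubicin in WT (-0.37 ± 0.13, edgeR adjusted p = 0.0217) and was lower in untreated R350H (-0.35 ± 0.13, edgeR adjusted p = 0.0322). Each call was lost in 5 of 17 alternatives, among them DESeq2 (adjusted p = 0.0771 and 0.104). The WT fall was -0.26 without untreated WT replicate 1 and -0.27 without both libraries of the other strand setting. The genotype difference was -0.15 without untreated R350H replicate 2 and -0.05 without both libraries of the other strand setting.

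Both SMARCC scaffolds followed the genotype. SMARCC1 was at 315 and 289 CPM in untreated WT, 365 and 336 in treated WT, 178 and 176 in untreated R350H, and 235 and 242 in treated R350H. All 4 R350H libraries lay below all 4 WT libraries, by -0.77 ± 0.07 untreated (edgeR adjusted p = 5.22e-10) and -0.56 ± 0.07 with doxorubicin (edgeR adjusted p = 1.2e-07). SMARCC2 was at 191 and 180 CPM in untreated WT, 157 and 169 in treated WT, 124 and 117 in untreated R350H, and 137 and 137 in treated R350H. It too was lowest in the untreated R350H libraries, by -0.62 ± 0.07 (edgeR adjusted p = 1.43e-08). It was the one member called as falling with doxorubicin in WT (-0.19 ± 0.06) and rising in R350H (0.19 ± 0.07). The WT fall was lost in 6 of 17 alternatives, with -0.16 (edgeR adjusted p = 0.131) when only the 4 libraries compared were fitted. The R350H rise was lost in 4 of 17. The difference between its responses was 0.38 ± 0.09 (edgeR adjusted p = 0.00543), lost in 4 of 16 alternatives.

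SMARCB1, a core subunit that contacts the nucleosome and is lost in rhabdoid tumours, was lower in R350H by -0.45 ± 0.08 untreated (edgeR adjusted p = 5.85e-05) and, after drug, by -0.30 ± 0.08 (edgeR adjusted p = 0.00362), the latter lost by library totals alone (-0.18, adjusted p = 0.0654). Its untreated libraries read 57.3 and 66.8 CPM in WT against 48.8 and 42.3 in R350H, and the treated ones 59.5 and 57.9 against 47.4 and 48.1. Its change with the drug was -0.08 ± 0.08 in WT and 0.07 ± 0.08 in R350H, and neither passed the test. SMARCE1, the HMG-box subunit, changed in no comparison.

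The SMARCD paralogs, which link BAF to transcription factors, split by genotype and drug. SMARCD2 stood at 178 and 188 CPM in untreated WT, 172 and 169 in treated WT, 143 and 136 in untreated R350H, and 170 and 174 in treated R350H. Only the untreated R350H libraries were low, by -0.39 ± 0.06 (edgeR adjusted p = 1.69e-05), and with doxorubicin the genotypes overlapped (0.01 ± 0.06). SMARCD3 rose with doxorubicin in R350H from 25.6 and 26.2 to 39.1 and 37.4 CPM (0.56 ± 0.08, edgeR adjusted p = 1.01e-06), where WT went from 30.3 and 29.9 to 31.4 and 34.2 CPM (0.12 ± 0.08, adjusted p = 0.206). Between genotypes SMARCD3 was called lower in untreated R350H (-0.22) and higher with drug (0.22), calls lost in 10 and 7 of 17 alternatives. SMARCD1 changed in no comparison, with differences between -0.14 and 0.10.

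**Figure D2:**
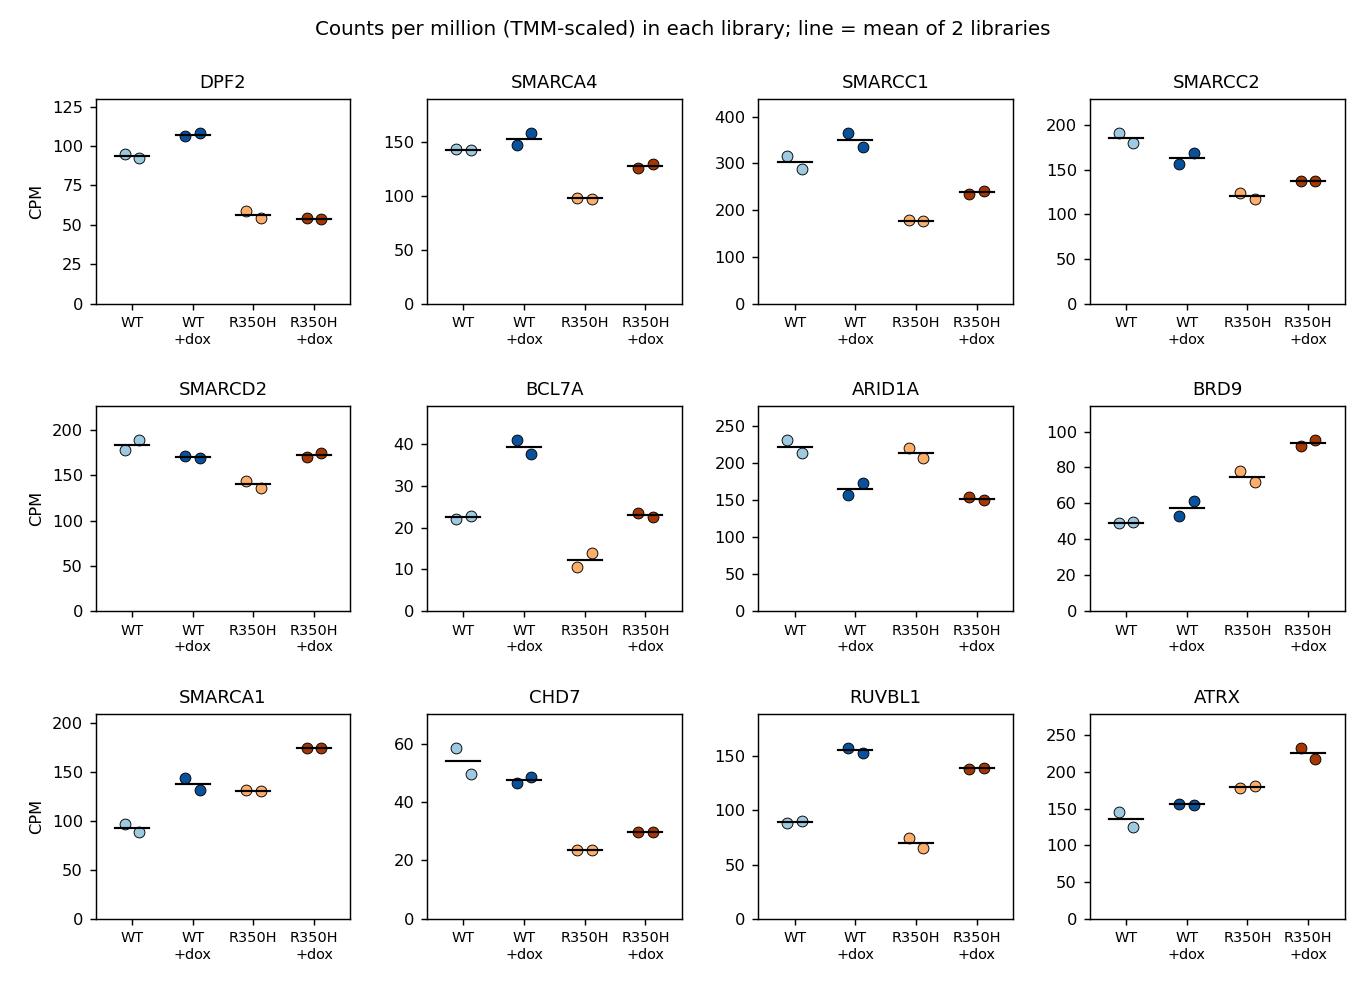
Level in CPM in each library for 12 members, with untreated and treated (+dox) groups of both lines on the horizontal axis, 1 point per library and a line at the mean of 2 libraries; every axis starts at 0. DPF2 and SMARCC1 are lower in all 4 R350H libraries, RUVBL1 is higher in all 4 treated libraries, and ARID1A is lower in all 4 treated libraries.

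The small BAF subunits of the BCL7 family changed in opposite directions. BCL7A rose with doxorubicin in both lines, from 22.2 and 22.8 to 40.8 and 37.6 CPM in WT (0.80 ± 0.10, edgeR adjusted p = 9.06e-08) and from 10.6 and 13.9 to 23.5 and 22.5 CPM in R350H (0.91 ± 0.10, edgeR adjusted p = 3.93e-08). It was also lower in R350H, by -0.87 ± 0.10 untreated and -0.77 ± 0.10 with drug, so that the treated R350H libraries reached the level of untreated WT. BCL7C fell in both lines, from 38.5 and 41.4 to 27.9 and 27.1 CPM in WT (-0.54 ± 0.08, edgeR adjusted p = 2.78e-06) and from 44.4 and 43.2 to 27.6 and 30.3 CPM in R350H (-0.60 ± 0.08, edgeR adjusted p = 3.32e-07). BCL7B went from 35.4 and 36.7 to 27.8 and 26.7 CPM in R350H (-0.40 ± 0.08, edgeR adjusted p = 0.000168), while its WT libraries overlapped (30.0 and 31.7 untreated, 34.2 and 30.2 treated). Between genotypes BCL7B was called higher in untreated R350H (0.225) and lower with drug (-0.238), calls lost in 6 and 3 of 17 alternatives.

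Of the other shared subunits, SS18, the partner in the fusion of synovial sarcoma, rose with doxorubicin by 0.21 ± 0.06 in WT and 0.23 ± 0.06 in R350H and did not pass the test between genotypes. SS18L1, its paralog, rose in R350H (0.26 ± 0.07, edgeR adjusted p = 0.00538) and had 0.00 ± 0.07 in WT. ACTL6A, the actin-related subunit of dividing cells, fell in R350H from 53.3 and 50.3 to 42.0 and 41.5 CPM (-0.31 ± 0.07, edgeR adjusted p = 0.000548) and had -0.14 ± 0.07 in WT (adjusted p = 0.123).

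ARID1A, the DNA-binding subunit of canonical BAF, fell with doxorubicin in both lines. Its CPM went from 230 and 214 to 157 and 172 in WT and from 220 and 206 to 153 and 149 in R350H. The changes were -0.43 ± 0.07 (edgeR adjusted p = 6.04e-06) and -0.49 ± 0.07 (edgeR adjusted p = 6.11e-07), and neither genotype difference passed the test. ARID1B, the alternative subunit, fell in WT from 65.1 and 63.8 to 46.4 and 49.6 CPM (-0.42 ± 0.07, edgeR adjusted p = 1.15e-05), while its R350H libraries overlapped (56.2 and 53.3 untreated, 54.1 and 52.8 treated, -0.03 ± 0.07).

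Of the PBAF subunits, PBRM1, which carries 6 bromodomains in its usual form, is one of the 3 members that fell in both lines, with ARID1A and BCL7C. It went from 130 and 111 to 96.7 and 95.2 CPM in WT (-0.33 ± 0.07, edgeR adjusted p = 0.000353) and from 116 and 123 to 94.8 and 89.2 CPM in R350H (-0.38 ± 0.07, edgeR adjusted p = 6.63e-05). ARID2, the PBAF counterpart of ARID1A, fell in WT (-0.30 ± 0.07, edgeR adjusted p = 0.00102) and had -0.13 ± 0.07 in R350H. PHF10, the PBAF counterpart of DPF2, rose in both lines, by 0.19 ± 0.07 in WT and 0.34 ± 0.07 in R350H (edgeR adjusted p = 0.0296 and 0.000252). BRD7, a bromodomain subunit, was lower in untreated R350H, at 65.5 and 68.1 against 78.8 and 81.4 CPM (-0.26 ± 0.06, edgeR adjusted p = 0.00194).

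DPF1 and DPF3, paralogs of DPF2 with known roles in neurons and muscle, were low. DPF1 rose with doxorubicin from 3.96 and 4.10 to 7.53 and 6.89 CPM in WT and from 3.94 and 3.25 to 6.31 and 6.57 CPM in R350H, by 0.84 ± 0.15 in each. DPF3 stood at 1.08 and 1.35 CPM in untreated WT, 1.70 and 1.28 in treated WT, 1.41 and 0.928 in untreated R350H, and 2.51 and 2.08 in treated R350H. Its rise in R350H (0.97 ± 0.27, edgeR adjusted p = 0.00355) rested on few counts and missed the threshold without untreated R350H replicate 2 (0.70, adjusted p = 0.091) or without treated R350H replicate 1 (0.80, adjusted p = 0.0532).

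BRD9, the bromodomain subunit that defines ncBAF, was higher in R350H. Its CPM was 49.2 and 49.6 in untreated WT, 53.3 and 61.6 in treated WT, 78.1 and 71.9 in untreated R350H, and 92.0 and 95.0 in treated R350H. All R350H libraries lay above all WT libraries, by 0.60 ± 0.07 untreated (edgeR adjusted p = 1.99e-07) and 0.70 ± 0.07 with doxorubicin (edgeR adjusted p = 7.6e-09). BRD9 (chromosome 5, bases 850291 to 892801, hg38) lies in a stretch where most genes moved the same way. Of 139 other tested genes on chromosome 5 before 50 Mb, 103 were higher and 4 lower in untreated R350H, with a median of 0.84, and 100 were higher and 5 lower with doxorubicin, with a median of 0.86. Beyond 50 Mb the 654 tested genes had medians of 0.03 and 0.07. BRD9 was below the median of its 32 neighbours within 3 Mb (0.83 and 1.02). Around the other 47 members the neighbours' medians stayed between -0.15 and 0.15 untreated and between -0.24 and 0.23 with drug.

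**Figure D3:**
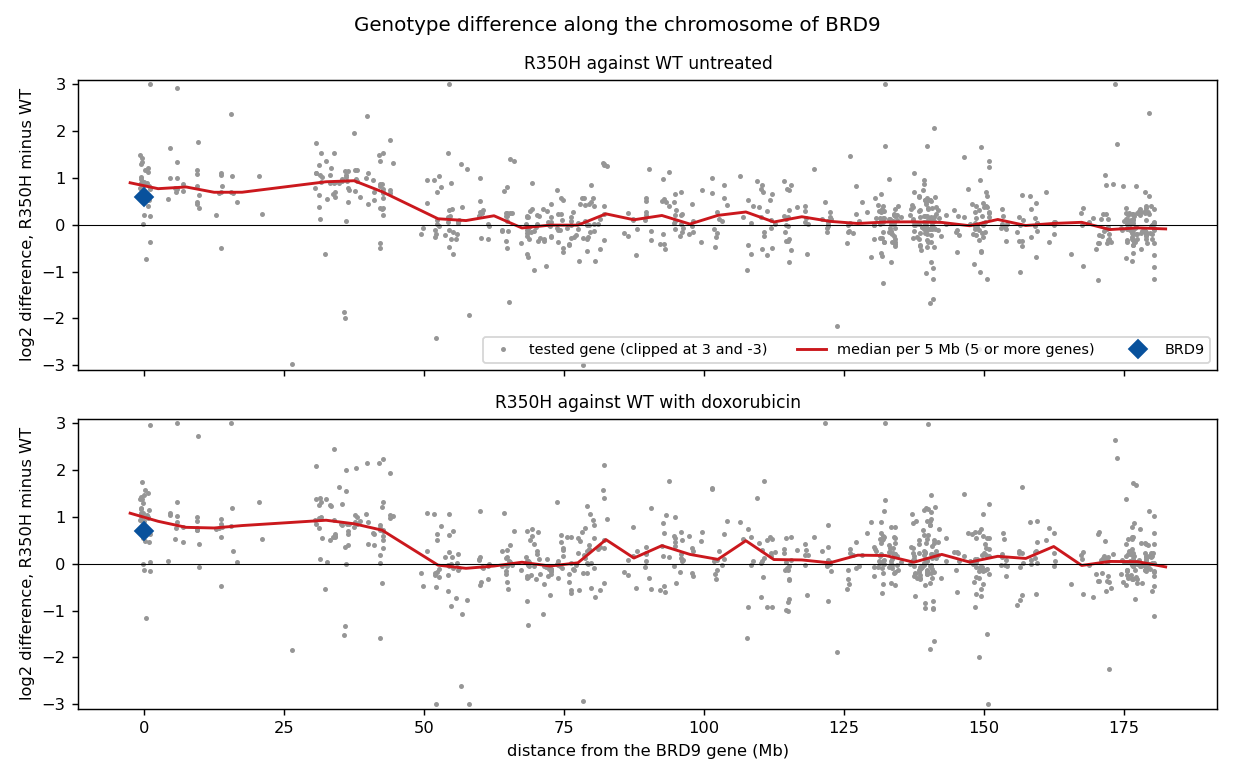
Log2 difference between R350H and WT of tested genes along the chromosome of BRD9, by distance from BRD9 in Mb, untreated (top) and with doxorubicin (bottom); grey points are genes, the red line is the median per 5 Mb and the diamond is BRD9. The median lies near 0.84 and 0.86 on the BRD9 side of the 50 Mb position and near 0 beyond it, and BRD9 sits at 0.60 and 0.70.

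The other ncBAF subunits, the paralogs BICRA and BICRAL, fell in WT with doxorubicin, by -0.27 ± 0.10 and -0.18 ± 0.07 (edgeR adjusted p = 0.0316 and 0.0355), and did not pass the test in R350H. The BICRA fall was lost in 6 of 17 alternatives, among them DESeq2 (adjusted p = 0.0949), and its change was -0.12 (adjusted p = 0.391) without treated WT replicate 1. The BICRAL fall was lost in 12, among them DESeq2 (adjusted p = 0.103), and its change was -0.12 (adjusted p = 0.265) without treated WT replicate 2. BICRA was also lower in untreated R350H, at 16.2 and 15.6 against 18.8 and 21.2 CPM (-0.33 ± 0.10, edgeR adjusted p = 0.0124).

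In the ISWI family the motor SMARCA1 was higher both with drug and in R350H. Its CPM was 96.8 and 88.9 in untreated WT, 143 and 132 in treated WT, 131 and 130 in untreated R350H, and 175 and 175 in treated R350H. It rose with doxorubicin by 0.57 ± 0.07 in WT (edgeR adjusted p = 5.88e-08) and by 0.42 ± 0.07 in R350H (edgeR adjusted p = 5.25e-06), and was higher in R350H by 0.49 ± 0.07 untreated and 0.34 ± 0.07 with drug. SMARCA5, the other ISWI motor, fell in WT by -0.20 ± 0.07 (edgeR adjusted p = 0.0159) and was -0.07 (adjusted p = 0.45) without treated WT replicate 2.

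BAZ1A, which pairs with SMARCA5 in the ACF complex, rose with doxorubicin from 66.7 and 61.5 to 104 and 97.0 CPM in WT (0.65 ± 0.07, edgeR adjusted p = 1.02e-08) and from 48.8 and 49.95 to 67.3 and 72.0 CPM in R350H (0.50 ± 0.07, edgeR adjusted p = 1.09e-06). It was lower in R350H, by -0.38 ± 0.07 untreated and -0.53 ± 0.07 with drug. BPTF, the histone-reading subunit of the NURF complex, was higher in R350H by 0.35 ± 0.07 and 0.32 ± 0.07 (edgeR adjusted p = 0.000587 and 0.00124), with 263, 260, 259 and 250 CPM in the R350H libraries against 188 to 223 CPM in WT. BAZ1B fell in R350H by -0.17 ± 0.07 with doxorubicin. That call was lost in 7 of 17 alternatives, among them library totals (-0.14, edgeR adjusted p = 0.0714) and no low-count filter (edgeR adjusted p = 0.0638). BAZ2A, which silences ribosomal RNA genes, changed in no comparison.

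CHD7, an enhancer-binding remodeller mutated in CHARGE syndrome, had the largest genotype difference of the 48 members tested in untreated cells. It stood at 58.5 and 49.4 CPM in untreated WT, 46.5 and 48.7 in treated WT, 23.5 and 23.7 in untreated R350H, and 29.7 and 29.8 in treated R350H. The R350H libraries were all below the WT libraries, by -1.19 ± 0.08 untreated (edgeR adjusted p = 5.42e-12) and -0.68 ± 0.08 with doxorubicin (edgeR adjusted p = 1.29e-07). CHD7 rose with doxorubicin in R350H (0.33 ± 0.08, edgeR adjusted p = 0.00171) and not in WT (-0.18 ± 0.08, adjusted p = 0.0568), and the difference between the responses was 0.52 ± 0.12 (edgeR adjusted p = 0.00246).

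CHD3, a NuRD motor, was lower in R350H by -0.34 ± 0.07 untreated and -0.31 ± 0.07 with drug (edgeR adjusted p = 0.00015 and 0.000364), at 145 to 152 CPM against 170 to 193 CPM in WT. CHD4, the other NuRD motor, changed in no comparison, on the fragments outside its shared exon bases. CHD2 was lower in R350H, by -0.18 ± 0.07 untreated and -0.34 ± 0.07 with drug (edgeR adjusted p = 0.0368 and 0.000257). The untreated call of CHD2 was lost in 11 of 17 alternatives, among them DESeq2 (adjusted p = 0.0574), RLE factors (adjusted p = 0.0566) and library totals (-0.13, adjusted p = 0.171). It was -0.10 (adjusted p = 0.292) without untreated WT replicate 1 and -0.09 (adjusted p = 0.462) without both libraries of the other strand setting. CHD6 was higher in R350H in both conditions (0.23 ± 0.07 and 0.34 ± 0.07, edgeR adjusted p = 0.0102 and 0.000259), the former 0.13 (adjusted p = 0.178) without untreated WT replicate 2.

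CHD1, which acts on transcribed genes, moved apart in the lines, from 116 and 102 to 128 and 118 CPM in WT (0.18 ± 0.07, edgeR adjusted p = 0.0373) and from 111 and 119 to 103 and 103 CPM in R350H (-0.16 ± 0.07, adjusted p = 0.0526). CHD8, which binds beta-catenin, and CHD9 rose with doxorubicin in R350H, by 0.25 ± 0.07 and 0.19 ± 0.07 (edgeR adjusted p = 0.00446 and 0.0357). Their WT values were 0.05 ± 0.07 and 0.07 ± 0.08, and neither difference between responses passed the test. The CHD9 rise was lost in 7 of 17 alternatives, among them DESeq2 (adjusted p = 0.121), and its change was 0.10 (adjusted p = 0.475) without treated R350H replicate 1. The CHD1 rise in WT was 0.09 (adjusted p = 0.337) without untreated WT replicate 2.

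RUVBL1, an AAA+ ATPase shared by INO80, SRCAP and EP400 complexes, had the largest rise with doxorubicin in R350H by value. DPF3 (0.97) and BCL7A (0.91) lay close to it, and their order was not tested. Its CPM went from 88.6 and 90.3 to 157 and 153 in WT (0.80 ± 0.07, edgeR adjusted p = 1.33e-10) and from 74.8 and 65.5 to 138 and 139 in R350H (0.98 ± 0.07, edgeR adjusted p = 1.71e-12). Every treated library was above every untreated one. Its partner RUVBL2 changed less, by 0.19 ± 0.07 in WT and 0.20 ± 0.07 in R350H (edgeR adjusted p = 0.0246 and 0.022), and the WT rise was 0.10 (adjusted p = 0.289) without untreated WT replicate 1. The R350H rise of RUVBL2 was 0.12 (adjusted p = 0.302) without untreated R350H replicate 2 and missed the threshold with DESeq2 (adjusted p = 0.0615). Without both libraries of the other strand setting the rises were 0.10 (adjusted p = 0.274) and 0.12 (adjusted p = 0.174). Both were lower in untreated R350H, RUVBL1 by -0.35 ± 0.07 and RUVBL2 by -0.31 ± 0.07. With drug RUVBL2 was lower by -0.30 ± 0.07, and RUVBL1 only just passed the test (-0.16 ± 0.07, edgeR adjusted p = 0.0491). That RUVBL1 call was lost in 8 of 17 alternatives, with -0.05 (adjusted p = 0.563) by library totals and adjusted p = 0.0581 with a replicate block.

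INO80, the motor of its complex, was at 65.8 and 66.9 CPM in untreated WT, 70.3 and 68.9 in treated WT, 58.1 and 55.0 in untreated R350H, and 47.7 and 51.2 in treated R350H. It was lower in R350H by -0.23 ± 0.07 untreated (edgeR adjusted p = 0.00819) and -0.49 ± 0.07 with drug (edgeR adjusted p = 1.33e-06). SRCAP rose in WT by 0.30 ± 0.12 (edgeR adjusted p = 0.0362) although its libraries overlapped, at 15.5 and 13.0 untreated against 15.4 and 19.6 CPM treated, and was 0.15 (adjusted p = 0.363) without treated WT replicate 2 and 0.18 (adjusted p = 0.283) without untreated WT replicate 2. EP400 changed in no comparison, with differences between -0.16 and 0.10.

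HELLS, which with CDCA7 supports DNA methylation, rose with doxorubicin in WT from 64.2 and 58.4 to 67.2 and 81.7 CPM (0.28 ± 0.08, edgeR adjusted p = 0.00647), and was 0.17 (adjusted p = 0.0983) without treated WT replicate 2. In R350H it went from 57.0 and 56.7 to 50.2 and 55.4 CPM (-0.11 ± 0.08), and with drug it was lower in R350H by -0.50 ± 0.08 (edgeR adjusted p = 2.66e-05). ATRX, which deposits histone H3.3 with DAXX, was at 146 and 126 CPM in untreated WT, 156 and 156 in treated WT, 178 and 181 in untreated R350H, and 233 and 218 in treated R350H. The R350H libraries were above the WT libraries by 0.40 ± 0.07 untreated (edgeR adjusted p = 3.6e-05) and 0.53 ± 0.07 with drug (edgeR adjusted p = 5.04e-07), and ATRX rose with doxorubicin in R350H by 0.33 ± 0.07 (edgeR adjusted p = 0.000261).

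Set side by side, the doxorubicin responses of the lines were alike in direction for most members called in both: 11 rose in both (ATRX, BAZ1A, BCL7A, BRD9, DPF1, PHF10, RUVBL1, RUVBL2, SMARCA1, SMARCC1 and SS18), 3 fell in both, and SMARCC2 was called in opposite directions. Across the 48 members the responses had r = 0.735, against 0.708 across all genes tested, a description over genes that share the same libraries. By this measure the members were close to all genes, and the share of all genes called alike in both lines was not counted. The test of the difference itself called 9 members. The response was higher in R350H for 6 (12.5%, against 6.46% of all genes), which are CHD7, SMARCD3, SMARCD2, ARID1B, SMARCC2 and SMARCA4. All 6 were also called lower in untreated R350H, a comparison that uses the same untreated libraries. For ARID1B the higher response was a smaller fall (-0.03 in R350H, -0.42 in WT). It was lower for 3 (6.25%, against 8.18% of all genes), which are BCL7B, HELLS and CHD1. All 9 also reached 1.2-fold (6.44% of all genes did so higher and 8.17% lower). The median difference was 0.11 over the members and 0.04 over all genes. Only CHD7 and BCL7B kept this call whichever library was left out, and only CHD7 kept it also without both libraries of the other strand setting (BCL7B then had adjusted p = 0.0828). The higher set numbered 1 without treated R350H replicate 2, 2 without treated R350H replicate 1 and 3 without untreated R350H replicate 2. The lower set numbered 1 without untreated WT replicate 2 or untreated R350H replicate 2, 5 without untreated WT replicate 1 and 7 without treated WT replicate 2.

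**Figure D4:**
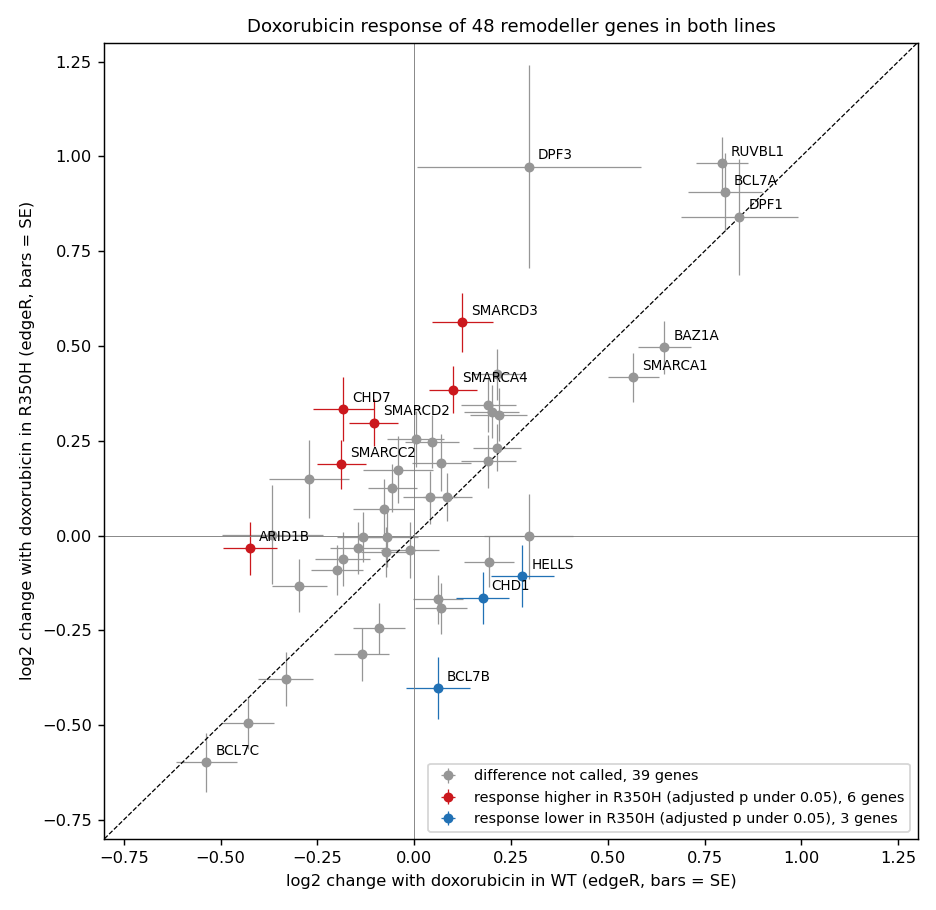
Log2 change with doxorubicin in WT (horizontal) and in R350H (vertical) for the 48 tested members, with SE bars and a dashed line of equal response; red marks the 6 members and blue the 3 members whose responses differed. RUVBL1, BCL7A and DPF1 lie at the upper right near the dashed line, and CHD7, SMARCD2 and SMARCC2 lie above it with WT values below 0.

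Paralogs that fill the same place in a complex changed their shares, given here as percent of their summed TPM in each library, without a test. DPF2 made up 91.8 and 91.1% of the DPF1, DPF2 and DPF3 total in untreated WT, 87.1 and 88.6% in treated WT, 86.9 and 88.6% in untreated R350H, and 78.9 and 78.8% in treated R350H. The treated R350H libraries were lowest, and in them DPF1 took 16.5 and 17.4%. SMARCA1 made up 43.6 and 41.3% of the ISWI motors in untreated WT, 55.2 and 56.3% in treated WT, 52.3 and 51.4% in untreated R350H, and 59.9 and 61.1% in treated R350H. It thus passed SMARCA5 in every group but untreated WT, an order that depends on exon length, since SMARCA5 has more CPM in all libraries.

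BCL7A took 15.8 and 15.3% of the BCL7 total in untreated WT, 26.9 and 27.0% in treated WT, 7.11 and 9.12% in untreated R350H, and 19.4 and 18.4% in treated R350H. The 4 groups did not overlap. SMARCC1 held 63.4 to 73.7% of the SMARCC total, highest in treated WT. The summed SMARCC level was 189 and 170 TPM in untreated WT against 116 and 111 TPM in untreated R350H, and the summed DPF level 36.4 and 34.9 against 24.5 and 22.0 TPM. SMARCA4 held 91.2 to 94.9% of the ATPase total and ARID1A 89.1 to 91.9% of the ARID1 total, with little movement between groups. The size of a share depends on exon length: the mean over 8 libraries was 90.64% by TPM and 77.1% by CPM for ARID1A. For DPF2 it was 86.47% by TPM and 91.37% by CPM.

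**Figure D5:**
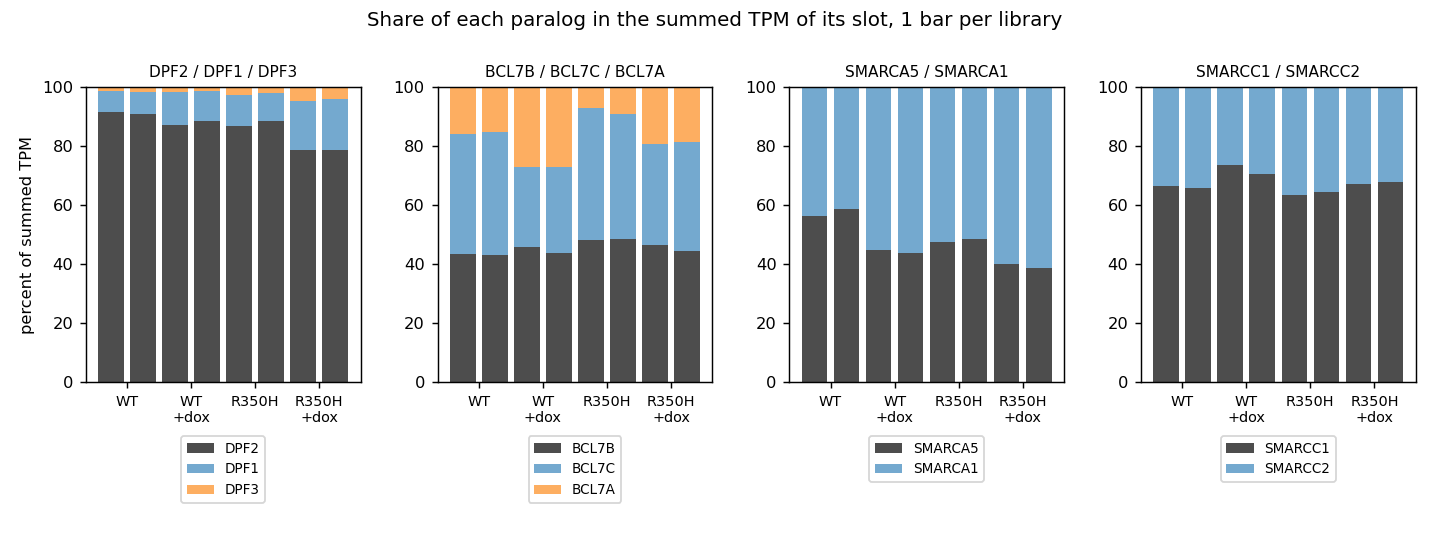
Percent of the summed TPM held by each paralog of 4 sets, 1 stacked bar per library, in untreated and treated (+dox) libraries of both lines. The DPF2 share is lowest in the treated R350H libraries (78.9 and 78.8%), and the BCL7A share is larger in the treated than in the untreated libraries of each line.

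The other genes of these complexes, 58 in all and all tested, also moved both ways. With doxorubicin 14 rose and 15 fell in WT (24.1% and 25.9%, against 24.1% and 23.6% of all genes), and 17 rose and 19 fell in R350H (29.3% and 32.8%, against 26.1% and 21.8%). Between genotypes 3 were higher and 13 lower in R350H untreated (5.17% and 22.4%, against 17.3% and 19.5%), and 4 were higher and 20 lower with drug (6.90% and 34.5%, against 19.1% and 21.0%). The WT shares and the untreated share lower in R350H were near those of all genes. Among INO80, SRCAP and EP400 partners, ACTR5, an actin-related subunit of INO80, rose in both lines (0.67 ± 0.08 and 0.68 ± 0.08, edgeR adjusted p = 8.71e-08 and 5.78e-08). BRD8, a bromodomain subunit of the EP400 complex, fell in WT from 106.0 and 99.3 to 51.2 and 60.4 CPM (-0.88 ± 0.07). In R350H BRD8 went from a lower start, 83.9 and 83.5 CPM, to 65.4 and 66.5 CPM. The difference between its responses, 0.53 ± 0.10 (edgeR adjusted p = 0.000498), was thus a smaller fall in R350H. YEATS4, a reader shared by SRCAP and EP400 complexes, fell in both lines (-0.86 ± 0.10 and -1.08 ± 0.10).

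Of the NuRD partners, CDK2AP1 was higher in R350H (0.73 ± 0.07 untreated and 0.38 ± 0.07 with drug), at 84.4 and 77.6 against 47.9 and 50.1 CPM untreated. RBBP4, a histone-binding subunit, was lower in untreated R350H (-0.57 ± 0.06, edgeR adjusted p = 5.88e-08). With drug it stood at 197 and 192 CPM in R350H against 241 and 224 in WT. Of other SNF2-family ATPases, CHD5 rose with doxorubicin by 0.81 ± 0.11 in WT and 0.66 ± 0.11 in R350H. RAD54L, a motor of homologous recombination, was lower in treated R350H (-1.004 ± 0.10, edgeR adjusted p = 4.26e-09), at 11.2 and 11.2 against 21.6 and 23.3 CPM, and its responses differed by -0.64 ± 0.14 (edgeR adjusted p = 0.00229). CDCA7, the partner of HELLS, was lower in R350H untreated (-0.46 ± 0.08) and with drug (-0.60 ± 0.08). With doxorubicin it rose in R350H by 0.44 ± 0.08 (edgeR adjusted p = 5.92e-05), and in WT it went from 36.1 and 34.4 to 49.4 and 55.5 CPM.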

How the data were processed

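The members and the list of 58 other genes of the same complexes were chosen with earlier results of these data known. The authors deposited whole-number counts of read pairs per gene for each of the 8 libraries. Per the file headers, fragments were counted on GENCODE release 34 exons by featureCounts 2.0.1 with a mapping quality of at least 10 and strand setting 1 in untreated WT replicate 1 and untreated R350H replicate 2 and 2 in the others. Per the labels' protocols, RNA was extracted with TRIzol and prepared with a stranded TruSeq mRNA kit. The build hg38 and the tools STAR 2.7.5a, DESeq2 1.36.0 and featureCounts 1.5.0-p1, another version than in the headers, come from the submitters' processing notes. A deposited TPM table of 202 genes holds none of the members and was not used. Libraries were grouped by their labels. Genes were filtered by filterByExpr (17868 kept), given TMM factors, and compared in edgeR 4.0.16 (R 4.3.3) by a robust two-sided quasi-likelihood test, with 1 mean per group over 8 libraries and 4 residual degrees of freedom. The p-values were adjusted by Benjamini-Hochberg over all genes tested and called under 0.05. The biological coefficient of variation was 5.35%. CPM use TMM-scaled library sizes, TPM were computed from counts and the exon lengths of the files, and a log2 change is given with its SE. No 2 libraries of a group were copies, with a chi-square per gene of 1.96 to 8.15 between them. It was 8.15 and 7.59 in untreated and treated WT, and 3.40 and 1.96 in untreated and treated R350H. The fit pooled the groups, so the spread may be understated in WT and overstated in R350H. With only the 4 libraries compared, drug calls over all genes went from 4301 higher and 4219 lower to 4092 and 3348 in WT. In R350H they went from 4667 and 3889 to 5092 and 4967. Total counts were 28111673 to 33727374. Depth per gene limits DPF3 (384 counts in all) and DPF1 (1316). The text gives every member, and of the 58 other genes it draws on the 3 largest rises and 3 largest falls called in each contrast. Sequences come from GENCODE 29 transcripts (GRCh38), aligned as translated with BLOSUM62.

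Tested on simulated data drawn from the real means, the test recovered 23.9%, 83.6% and 100% of genes changed 1.2-fold, 1.5-fold and 2-fold for doxorubicin in WT (17414 genes), 25.4%, 97% and 100% in R350H (17409 genes), 26.9%, 89.6% and 100% for genotype untreated (17422 genes), and 31.3%, 86.6% and 97% for genotype with doxorubicin (17431 genes). For the difference between responses (17418 genes) it recovered 8.96%, 80.6% and 98.5%, and 18 of its 143 calls were unchanged genes. In each simulation the groups shared 1 mean per gene, apart from 66 or 67 genes changed at each fold, all above a minimum level. With so few changed genes the cut on adjusted p was stricter than in the data, so these rates do not carry over to it. The alternatives were DESeq2 1.42.0, RLE factors, library totals, other low-count filters, the compared groups alone, a replicate block, a fit that is not robust, a fold minimum, each library left out, both libraries of strand setting 1 left out, and, for shares, CPM. Shares by unshared exon length were added after seeing the data.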

Additional observations from a re-analysis of the deposited data

Results flagged for a closer look

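The doxorubicin response differed between the lines for 9 members by the test of the difference itself (edgeR, R350H minus WT, log2). In untreated and treated cells of WT and R350H the values are those given above. The response was higher in R350H for CHD7 (0.517 ± 0.12, adjusted p = 0.00246), SMARCD3 (0.439 ± 0.11, adjusted p = 0.0075), SMARCD2 (0.402 ± 0.09, adjusted p = 0.00233), ARID1B (0.391 ± 0.10, adjusted p = 0.00649), SMARCC2 (0.376 ± 0.09, adjusted p = 0.00543) and SMARCA4 (0.285 ± 0.09, adjusted p = 0.0296). It was lower for BCL7B (-0.463 ± 0.12, adjusted p = 0.00642), HELLS (-0.387 ± 0.12, adjusted p = 0.0249) and CHD1 (-0.342 ± 0.10, adjusted p = 0.0182).

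The 7 members other than CHD7 and BCL7B missed the threshold without at least 1 library. SMARCD2 did so without treated R350H replicate 2 (0.33, adjusted p = 0.0903), and SMARCD3 without treated R350H replicate 1 (0.36, adjusted p = 0.121) or 2 (0.42, adjusted p = 0.0534). ARID1B and SMARCC2 did so without either treated R350H library or untreated R350H replicate 2 (adjusted p from 0.0532 to 0.116 and from 0.056 to 0.0958). SMARCA4 did so without any R350H library or treated WT replicate 1 (adjusted p from 0.0909 to 0.348). CHD1 did so without untreated R350H replicate 2, treated WT replicate 1 or untreated WT replicate 2 (adjusted p from 0.0641 to 0.127), and HELLS without either untreated R350H library, treated R350H replicate 1 or untreated WT replicate 2 (adjusted p from 0.0723 to 0.1).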

How the results depend on the processing

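No member result turned its direction under any of the 17 alternatives fitted, but calls ended. Of 110 member calls, 9 to 25 ended with 1 library left out, 24 without both libraries of strand setting 1, 18 by library totals, 12 by DESeq2, 6 with no low-count filter, 5 by RLE factors, 4 with a stricter filter, 1 by a fit that is not robust and 1 with a replicate block. With only the 4 libraries compared, 7 of 101 ended. With 1 library left out at a time, members numbered 9 to 15 higher and 6 to 13 lower for doxorubicin in WT, 13 to 20 and 5 to 10 for doxorubicin in R350H, 4 to 6 and 12 to 21 for genotype untreated, 4 to 7 and 14 to 17 for genotype with doxorubicin, and 1 to 8 and 1 to 7 for the difference between responses. At a change of at least 1.2-fold, 7 of 15 rises and 7 of 10 falls in WT were kept, 14 of 20 rises and 5 of 8 falls in R350H, 14 of 20 lower and 4 of 6 higher for genotype untreated, 11 of 16 lower and 5 of 6 higher with doxorubicin, and all 9 for the difference. With only the 4 libraries compared, 6 fell in WT. Without both libraries of strand setting 1, 13 were lower in untreated R350H and 3 had a higher response. By library totals 17 were higher and 10 lower with doxorubicin, and 1 had a lower response. DESeq2 gave 6 and RLE factors 5 with a lower response. Library totals moved the share of higher calls among all called genes from 46.9% to 57.4% for genotype untreated, from 47.7% to 66.1% with doxorubicin and from 44.1% to 59.0% for the difference between responses, where DESeq2 gave 29.1% and RLE factors 33.9%. The cause was not tested.

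A replicate block gave 15 higher and 10 lower for doxorubicin in WT, 20 and 8 in R350H, 6 and 20 for genotype untreated, 6 and 15 with doxorubicin, and 7 and 3 for the difference. It ended the call of RUVBL1 with doxorubicin. Same-numbered libraries did not deviate together (6 correlations of -0.076 to 0.041). This does not settle whether they were handled together, which the labels do not say.

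The chromosome 5 median before 50 Mb was 0.832 to 0.884 untreated and 0.817 to 0.89 with doxorubicin with 1 library left out. It was 0.893 and 0.967 by library totals, 0.762 and 0.807 with no low-count filter, and with doxorubicin 0.829 by RLE factors. From CPM instead of TPM, which leaves in the exon length, mean shares over 8 libraries were 91.37% for DPF2, 92.47% for SMARCA4, 77.1% for ARID1A, 63.31% for SMARCC1, 61.77% for SMARCD2, 34.77% for BCL7B, 69.96% for SS18, 62.43% for SMARCA5 and 19.47% for CHD4, and 26.99% for CHD4 by unshared exon length. Depth limits DPF3, with 384 counts in all. On simulated data with 2 libraries a group the test missed most changes of 1.2-fold, and depth was not varied there. Few genes were changed in the simulation, which made its cut on adjusted p stricter than in the data, where some smaller changes were called.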
